A study of Mus musculus with 8 samples.

Results

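Cytosolic nucleic acid sensors are the proteins with which a cell recognises viral or misplaced RNA and DNA outside the nucleus. The 6 genes described here, *Ddx58*, *Ifih1*, *Dhx58*, *Mavs*, *Zbp1* and *Eif2ak2*, were chosen by name and matched by Ensembl identifier. All 6 were present among the 46517 genes of the deposited table, and all 6 passed the filter on low values that left 14139 genes for testing. The libraries were made from osteoclasts, the multinucleated cells that resorb bone, grown from femoral bone marrow of 6 to 8 week old mice. Cells still in suspension after 16 h were taken on in L929 conditioned medium (10%), which supplies macrophage colony stimulating factor, and received GST-RANKL (50 ng/ml), the cytokine that drives osteoclast differentiation, for 7 days. The culture methods of the study add 3 days in L929 medium and replating of the attached cells before RANKL, a step that the labels do not mention. The test group were 4 *Elmo1*-/- mice with a global deletion of *Elmo1*, the gene of an engulfment and cell motility protein that activates Rac with a DOCK partner. The controls were 4 *Elmo1*+/- mice, which carry the same deletion on 1 chromosome, so that no library was of intact *Elmo1* genotype, although the control libraries are titled WT. Each mouse gave 1 library, named here by genotype and by the number from 1 to 4 in its label.

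In this pathway RIG-I (*Ddx58*) and MDA5 (*Ifih1*) are RNA helicases that bind viral double-stranded RNA, RIG-I preferring short ends with a 5′ triphosphate and MDA5 long duplexes. LGP2 (*Dhx58*) is related to both but has no signalling domain and tunes their activity. RIG-I and MDA5 pass their signal to MAVS (*Mavs*), an adaptor on the outer mitochondrial membrane, from which the kinases TBK1 and IKKε and the factors IRF3 and IRF7 switch on type I interferon genes. ZBP1 (*Zbp1*) binds nucleic acids in the Z conformation and recruits RIPK3, a kinase of necroptotic cell death. PKR (*Eif2ak2*) is activated by double-stranded RNA and stops translation by phosphorylating eIF2α. Interferon in turn raises transcription of *Ddx58*, *Ifih1*, *Dhx58*, *Zbp1* and *Eif2ak2* through interferon-activated transcription factors, whereas *Mavs* is widely expressed without it. In osteoclast precursors, type I interferon is known as a brake on differentiation under RANKL. Of the 6 products only ZBP1 is known as a DNA as well as an RNA binder, and the DNA sensors cGAS, STING and AIM2 are described with the genes around the members.

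On the mouse genome (GRCm38, GENCODE release 21) *Ddx58* (ENSMUSG00000040296) lies on the minus strand of chromosome 4, from 40203773 to 40239828, and its longest coding transcript has 18 exons and 926 codons. *Ifih1* (ENSMUSG00000026896) lies on the minus strand of chromosome 2, from 62595798 to 62646255, with 16 exons and 1025 codons. *Dhx58* (ENSMUSG00000017830) is the shorter relative of both, with 13 exons and 678 codons, on the minus strand of chromosome 11 from 100694884 to 100704271. *Mavs* (ENSMUSG00000037523, chromosome 2, 131234063 to 131248025) is the only one of the 6 on the plus strand, with 7 exons and 503 codons. *Zbp1* (ENSMUSG00000027514, chromosome 2, 173206612 to 173218923, minus strand) has 8 exons and 411 codons. *Eif2ak2* (ENSMUSG00000024079, chromosome 17, 78852564 to 78882573, minus strand) has 16 exons and 515 codons. The antisense gene *Dhx58os* shares 141 exon bases with *Dhx58* and *Gm26637* shares 174 with *Eif2ak2* on the opposite strand. *Dhx58os* had at most 5.68 normalized counts and *Gm26637* between 51.8 and 109.7, far below their partners. Whether reads were counted by strand is not given in the sources used here.

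Start regions show which genes carry the letters known as the interferon-stimulated response element. Promoters of 4 of the 6 genes, *Ddx58*, *Ifih1*, *Mavs* and *Eif2ak2*, were in the RefSeq table used (GRCm38.p6, 250 bases before and 50 from each start). The core of this element, searched as GAAANNGAAA on both strands, was found in *Ddx58*, *Ifih1* and *Eif2ak2* and not in *Mavs*. Of all 32851 promoters of this length in the table, 3.44% hold it, as do 7 of the 13 other interferon-stimulated genes listed here that have an entry. All 3 matches lay just after the RefSeq start, at bases 3, 33 and 19 of *Ddx58*, *Ifih1* and *Eif2ak2*, and each 30-base window below overlaps an annotated first exon with untranslated sequence. The windows are written along the gene, with the match in capitals (in *Ddx58* the match is on the opposite strand), and the *Mavs* window, shown for contrast, ends at the base before its start.
Ddx58 chr4:40239804-40239833, minus strand: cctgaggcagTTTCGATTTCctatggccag
Ifih1 chr2:62646206-62646235, minus strand: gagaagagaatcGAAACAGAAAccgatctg
Eif2ak2 chr17:78882535-78882564, minus strand: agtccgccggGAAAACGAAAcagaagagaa
Mavs chr2:131234033-131234062, plus strand: atagctgcgtggctggcttcgtcccgcccc
These matches describe letters, and binding was not measured.

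The libraries held 20905502 to 40846651 reads on genes. *Elmo1* checked the labels: it had 274 to 316 normalized counts (reads divided by 1 size factor per library) in *Elmo1*-/- and 1423 to 1769 in *Elmo1*+/- mice. All 10 osteoclast markers were detected in all libraries, with a summed level of 450909 to 1173015 in *Elmo1*-/- and 589401 to 1091130.5 in *Elmo1*+/- mice, beside macrophage markers at 302871 to 391054 over all 8. Lymphocyte markers summed to 160.3 to 421 and erythroid markers to at most 4.76, with *Hbb-bs* at 0. Of the 7 dendritic markers *Cd209a* was at 0 and *Siglech* at most 1.20, and *Bst2*, which is also interferon-inducible, had 8673 to 24357 while the other 6 summed to 77.8 to 166. The libraries fell into 2 sets by number, since the first principal component, with 62.3% of the variance, had the libraries numbered 1 and 2 of both genotypes on 1 side and those numbered 3 and 4 on the other. The study sequenced 2 mice per genotype in each of 2 experiments, and the sources used here do not assign the mice to them. *Elmo1*-/- library 1 was farthest out on that component and was the lowest in each of the 10 osteoclast markers, and *Elmo1*-/- library 2 was the nearest to the middle. A sex-linked split ran partly along the numbers: *Xist*, the RNA of the inactive X chromosome, was at 0 and the Y-linked gene *Ddx3y* between 1114 and 1484 in *Elmo1*+/- libraries 1 and 2 and *Elmo1*-/- library 1, while *Xist* was between 5279 and 6929 and *Ddx3y* at most 0.835 in the other 5. The labels give no sex, and both differences are given beside the results they touch. In bulk RNA, fewer expressing cells and less RNA per cell cannot be told apart.

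The genes were well expressed at rest, with no virus or nucleic acid added. Per kb of annotated exon, the unit in which levels of different genes can be set side by side, *Ddx58* stood highest at 661 ± 131 normalized counts per kb (mean ± SD, n = 8 libraries). It was followed by *Dhx58* at 651 ± 171, *Eif2ak2* at 638 ± 63.7, *Zbp1* at 603 ± 321 and *Mavs* at 579.8 ± 28.5. *Ifih1* stood apart at 222 ± 35.4. On this length each of the first 5 overlapped its neighbour in that order in range. *Ddx58* was above *Dhx58* in 6 of 8 libraries and *Dhx58* above *Eif2ak2* in 3 of 8. *Eif2ak2* was above *Zbp1* in 7 of 8 and *Zbp1* above *Mavs* in 3 of 8. *Mavs* was above *Ifih1* in 8 of 8 libraries, by 1.77 to 3.10 times, with no overlap. Among the RNA helicases, therefore, transcripts of the RIG-I gene outnumbered those of the MDA5 gene in every library, by 2.65 to 3.17 times per kb. The exon length used is the union over 10 transcripts for *Ddx58* and 5 for *Ifih1*. The overlaps and the orders by library were taken on this union length only. Over the longest transcript alone the levels were 1202 for *Ddx58*, 883 for *Dhx58*, 757 for *Eif2ak2*, 639.9 for *Zbp1*, 634 for *Mavs* and 331 for *Ifih1*, so the order was kept and the distances were not.

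**Figure D1:**
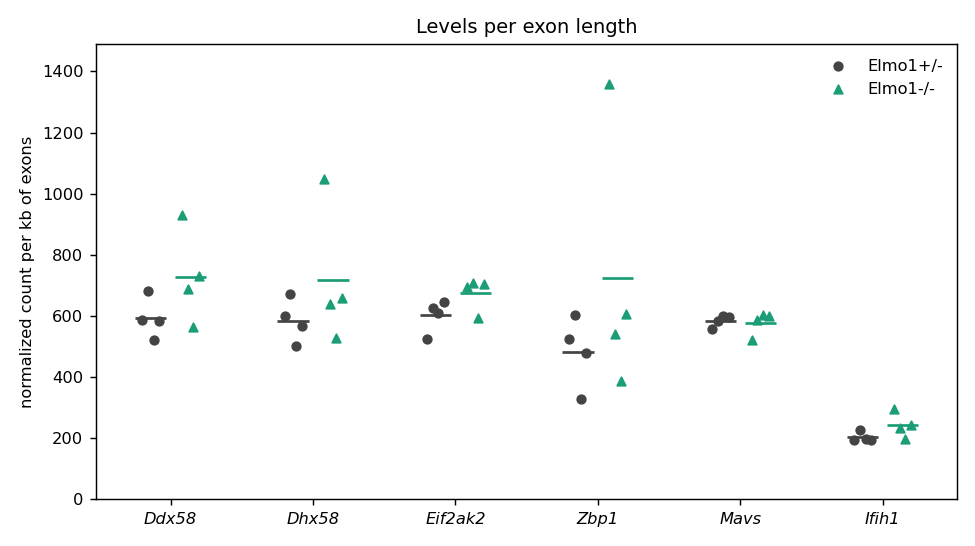
Normalized count per kb of exons (vertical axis, from 0) for each gene, with 1 point per library, circles for the 4 *Elmo1*+/- and triangles for the 4 *Elmo1*-/- libraries, and bars at the group means. *Ifih1* lies below all others at 192 to 294 per kb, and *Zbp1* spans the widest range, 327 to 1359.6 per kb.

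The spread among libraries differed between the members more than their levels did. It was taken about the genotype means and so includes the separation by number. The SD of log2 levels within a genotype was 0.61 for *Zbp1*, larger than that of 92.8% of the tested genes, and 0.32 for *Dhx58*, 0.24 for *Ddx58*, 0.18 for *Ifih1* and 0.13 for *Eif2ak2*. *Mavs* had the steadiest level, with 0.08, and only 9.63% of the tested genes varied less. Much of this spread came with *Elmo1*-/- library 1. Without it the SD was 0.36 for *Zbp1*, larger than that of 82.7% of the tested genes, 0.17 for *Dhx58*, 0.18 for *Ddx58*, 0.13 for *Ifih1*, 0.14 for *Eif2ak2* and 0.04 for *Mavs*, with *Zbp1* still the most and *Mavs* the least variable of the 6.

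The first question was whether loss of *Elmo1* changes the expression of these sensors. None of the 6 genes passed the test between genotypes, where limma with Benjamini-Hochberg adjustment called 1 gene, *Elmo1*, of the 14139 tested (0.00707%). In means, 5 of the 6 were higher in *Elmo1*-/- osteoclasts, by 1.12 times (*Eif2ak2*) to 1.50 times (*Zbp1*), and *Mavs* was at 0.990 times the control. The share of all tested genes with a log2 fold change above 0 was 48.4%. No member separated the genotypes, that is, the ranges overlapped in all 6, and 0.941% of tested genes had ranges that did not overlap. At an unadjusted p under 0.05, limma gave 0 of the 6 members and 133 of all tested genes (0.941%). With the replicate number as a block it gave 3 of the 6, *Ddx58*, *Ifih1* and *Eif2ak2*, against 2.75% of all tested genes. That block rests on the numbers in the labels alone. With the state of *Xist* as a term limma gave 4 of the 6, *Ddx58*, *Ifih1*, *Dhx58* and *Zbp1*, against 7.78%. Under neither did a member pass after adjustment. The *Xist* state followed the number sets except in *Elmo1*-/- library 2.

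*Ddx58*, for RIG-I, had 4139, 4801, 3676 and 4108 normalized counts in *Elmo1*+/- libraries 1 to 4 and 6564, 4856, 3964 and 5154 in *Elmo1*-/- libraries 1 to 4. *Elmo1*-/- library 1 was the highest of all 8, and *Elmo1*-/- library 3 lay within the control range. The means were 4181 ± 464 and 5135 ± 1079 (SD, n = 4 mice each). The log2 fold change, *Elmo1*-/- minus *Elmo1*+/-, was 0.28 (standard error 0.15, 95% interval −0.06 to 0.62, unadjusted p = 0.0932, adjusted p = 1.00 from limma, exact two-sided permutation p = 0.171).

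*Ifih1*, for MDA5, had 1572, 1833, 1606 and 1568 normalized counts in the *Elmo1*+/- libraries and 2398, 1902, 1606 and 1987 in the *Elmo1*-/- libraries. The *Elmo1*-/- libraries 1, 2 and 4 were above all controls, and number 3 lay within their range. The means were 1645 ± 127 and 1973 ± 327, a log2 fold change of 0.25 (standard error 0.12, 95% interval −0.02 to 0.52, unadjusted p = 0.0638, adjusted p = 1.00 from limma, exact permutation p = 0.0857).

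*Dhx58*, for LGP2, had 1959.8, 2196, 1634 and 1856 normalized counts in the *Elmo1*+/- libraries and 3426, 2092, 1729 and 2152 in the *Elmo1*-/- libraries. Apart from *Elmo1*-/- library 1, the values of the genotypes lay within the same range. The means were 1911 ± 233 and 2349.8 ± 742, with a log2 fold change of 0.26 (standard error 0.19, 95% interval −0.18 to 0.70, adjusted p = 1.00 from limma, exact permutation p = 0.343).

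*Mavs*, the adaptor, had 1863, 1945, 1999 and 1988 normalized counts in the *Elmo1*+/- libraries and 1737, 1959.9, 2017 and 2007 in the *Elmo1*-/- libraries. Here *Elmo1*-/- library 1 was the lowest of the 8 and the other 3 were level with the controls. The means were 1949 ± 61.7 and 1930.1 ± 131, with a log2 fold change of −0.02 and a 95% interval of −0.17 to 0.14, the narrowest of the 6 (adjusted p = 1.00 from limma, exact permutation p = 0.886).

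*Zbp1*, the Z-nucleic acid sensor, had 1849, 2129.6, 1154 and 1682 normalized counts in the *Elmo1*+/- libraries and 4798, 1909.6, 1361 and 2136 in the *Elmo1*-/- libraries. *Elmo1*-/- library 1 was at 2.75 times the mean of the other 7, and 42 tested genes (0.297%), *Zbp1* included, had this ratio or a higher one in that library. The means were 1704 ± 410.3 and 2551 ± 1533, with a log2 fold change of 0.45 and a 95% interval of −0.36 to 1.26, the widest of the 6 (adjusted p = 1.00 from limma, exact permutation p = 0.343).

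*Eif2ak2*, for PKR, had 2685, 3189.5, 3114 and 3301 normalized counts in the *Elmo1*+/- libraries and 3555, 3616, 3037 and 3607 in the *Elmo1*-/- libraries. Its *Elmo1*-/- libraries 1, 2 and 4 were also above all controls, while number 3 lay among the controls. The means were 3072 ± 269.6 and 3454 ± 279, with a log2 fold change of 0.17 (standard error 0.09, 95% interval −0.03 to 0.37, unadjusted p = 0.0910, adjusted p = 1.00 from limma, exact permutation p = 0.114). With 4 mice per group the exact test cannot go below 0.0286, and no member reached that value.

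**Figure D2:**
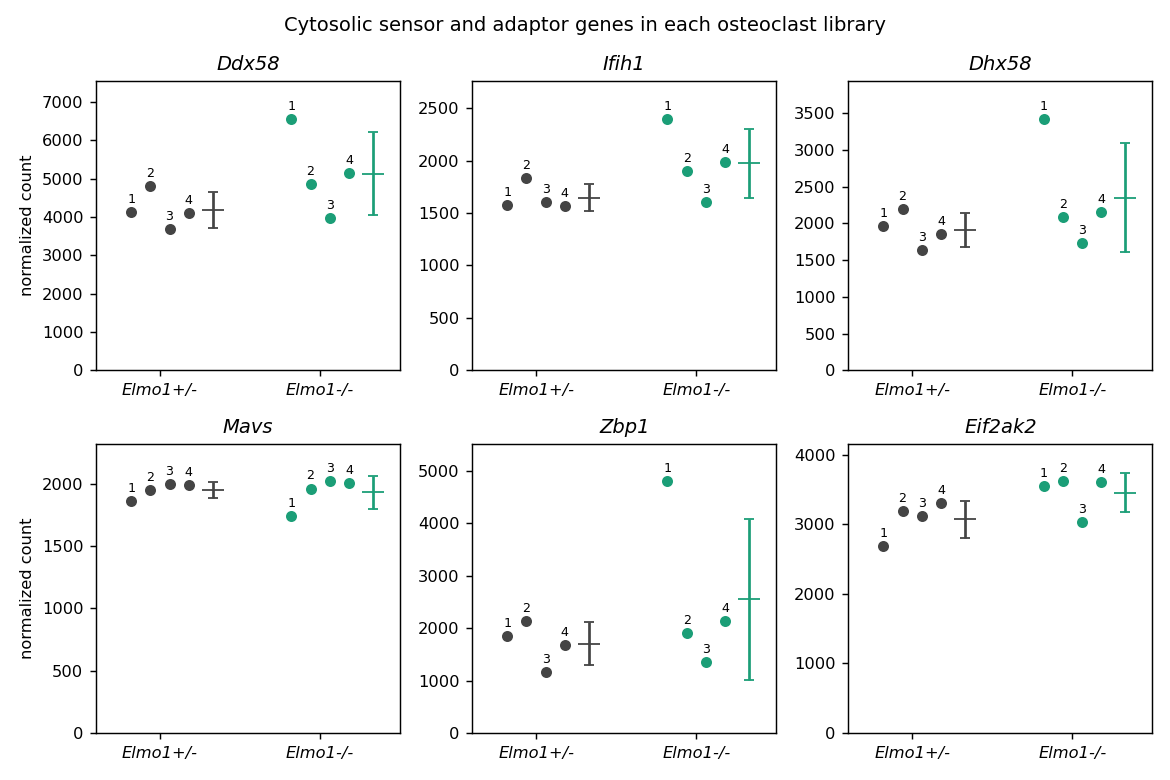
Normalized count (vertical axes, from 0) of each gene in each library, numbered 1 to 4 within *Elmo1*+/- (grey) and *Elmo1*-/- (green), with the mean and SD at the right of each group. *Elmo1*-/- library 1 is the highest point for *Ddx58*, *Ifih1*, *Dhx58* and *Zbp1* and the lowest for *Mavs*.

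The size of the differences rested in part on *Elmo1*-/- library 1. It was the highest of all 8 in 4 of the 6 members and the lowest in *Mavs*, where 27.1% of all tested genes were highest and 28.3% lowest in that library. Without it the log2 fold change was 0.15 for *Ddx58*, 0.15 for *Ifih1*, 0.06 for *Dhx58*, 0.09 for *Zbp1* and 0.15 for *Eif2ak2*, and that of *Mavs* turned to 0.03, with adjusted p between 0.936 and 0.953 by limma. *Dhx58* and *Zbp1* thus lost most of their difference, *Ddx58* and *Ifih1* part of it, and *Eif2ak2* little. Against the mean of the other 7 libraries, *Elmo1*-/- library 1 was at 2.75 times for *Zbp1*, 1.76 for *Dhx58*, 1.50 for *Ddx58*, 1.39 for *Ifih1*, 1.10 for *Eif2ak2* and 0.882 for *Mavs*. Its osteoclast markers were the lowest of the 8 (summed level 450909), 5 of 8 neutrophil and precursor markers and 4 of 8 macrophage markers were highest there. The neutrophil list summed to 22561 in it against 10346 to 21493 elsewhere, and the dendritic list, which holds the interferon-inducible gene *Bst2*, to 24483 against 8828 to 15315. The part of these in the result was not tested.

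Between libraries of the same number, *Ddx58* was higher in the *Elmo1*-/- mouse in 4 of 4 pairs, by a log2 of 0.67, 0.02, 0.11 and 0.33. The other members were higher in 3 of 4, *Mavs* by at most 0.01. For *Zbp1* these differences were 1.37, −0.16, 0.24 and 0.34, and for *Eif2ak2* 0.41, 0.18, −0.04 and 0.13, so the pair numbered 1 held the largest difference in both. The pairs rest on the numbers in the labels alone, and the counts of pairs depend on them. For *Ddx58*, *Elmo1*+/- library 4 had 4108 normalized counts, above the 3964 of *Elmo1*-/- library 3. The share of all tested genes with such counts of pairs is not given.

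The members were also compared within each side of the sex-linked split. Among the 5 libraries with *Xist*, 2 *Elmo1*+/- and 3 *Elmo1*-/-, the log2 fold change was 0.25 for *Ddx58*, 0.20 for *Ifih1*, 0.19 for *Dhx58*, 0.35 for *Zbp1*, 0.09 for *Eif2ak2* and 0.00 for *Mavs*, with adjusted p between 0.972 and 0.999 by limma. Both *Elmo1*+/- libraries here were numbered 3 and 4, whereas the *Elmo1*-/- libraries were numbered 2, 3 and 4. This comparison thus held the *Xist* state fixed but not the number set. Among the 3 libraries without *Xist*, the *Elmo1*-/- library was above the mean of both controls by a log2 of 0.56 for *Ddx58*, 0.50 for *Ifih1*, 0.72 for *Dhx58*, 1.27 for *Zbp1* and 0.28 for *Eif2ak2* and below it by 0.13 for *Mavs*, with 1 library on that side and no test.

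**Figure D3:**
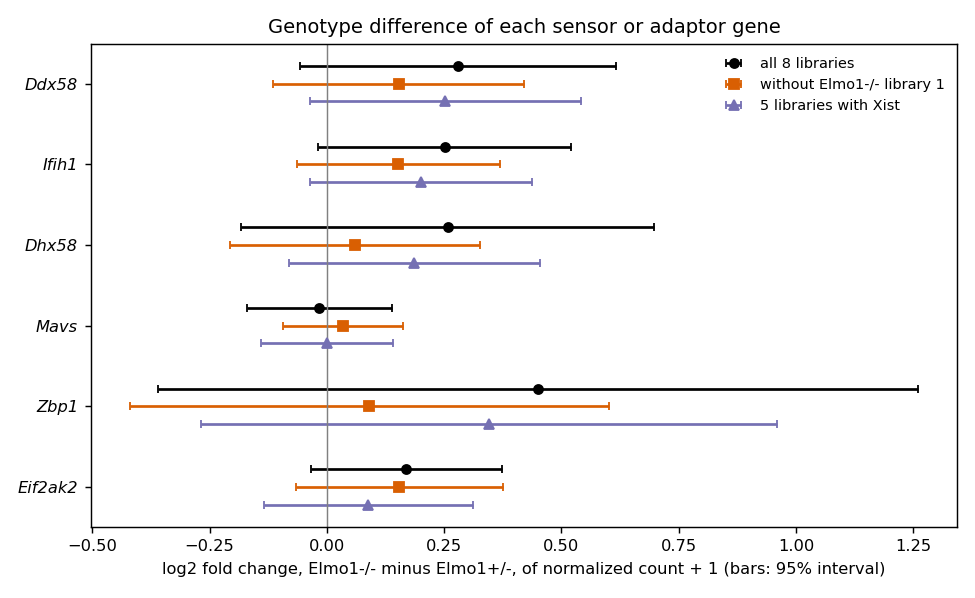
Log2 fold change of each gene, *Elmo1*-/- minus *Elmo1*+/- (horizontal axis), with 95% intervals from limma, over all 8 libraries (circles), without *Elmo1*-/- library 1 (squares) and within the 5 libraries with *Xist* (triangles). All intervals include 0, and *Zbp1* moves from 0.45 to 0.09 when *Elmo1*-/- library 1 is left out. The 5 libraries with *Xist* are those numbered 3 and 4 of both genotypes and *Elmo1*-/- library 2.

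As a description, the ratio by which the study ranked its genes, the *Elmo1*-/- mean over the sum of both means, with 0.5 for no difference, was recomputed over all 4 mice per genotype. It was 0.600 for *Zbp1*, 0.551 for *Dhx58*, 0.551 for *Ddx58*, 0.545 for *Ifih1*, 0.529 for *Eif2ak2* and 0.498 for *Mavs*. The study compared groups of 2 mice per condition, so these values cannot be ranked beside its own. They include *Elmo1*-/- library 1, without which the log2 fold change of *Zbp1* went from 0.45 to 0.09.

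Of the interferon-inducible members, *Ddx58*, *Ifih1*, *Dhx58* and *Zbp1* were highest in the same library, and *Eif2ak2* followed another order, highest in *Elmo1*-/- library 2 and lowest in *Elmo1*+/- library 1. *Elmo1*-/- library 1 ranked first for *Ddx58*, *Ifih1*, *Dhx58* and *Zbp1*, and *Elmo1*+/- library 3 ranked last for *Ddx58*, *Dhx58* and *Zbp1*. *Elmo1*-/- library 4 took rank 2 or 3 for all 5 inducible members. The amplitude was graded: between the lowest and the highest library *Zbp1* spanned 1154 to 4798 normalized counts, *Dhx58* 1634 to 3426 and *Ifih1* 1568 to 2398. The ratio of *Zbp1* to *Ddx58* per kb therefore ran from 0.627 in *Elmo1*+/- library 3 to 1.46 in *Elmo1*-/- library 1, while that of *Dhx58* to *Ddx58* stayed between 0.8996 and 1.02 in the other 7 and reached 1.12 in *Elmo1*-/- library 1. *Mavs* went the opposite way in *Elmo1*-/- library 1, its lowest, and lay between 1863 and 2017 normalized counts in the other 7. Its ratio to *Ddx58* per kb was lowest in *Elmo1*-/- library 1, at 0.558, against 0.821 to 1.15 in the others.

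**Figure D4:**
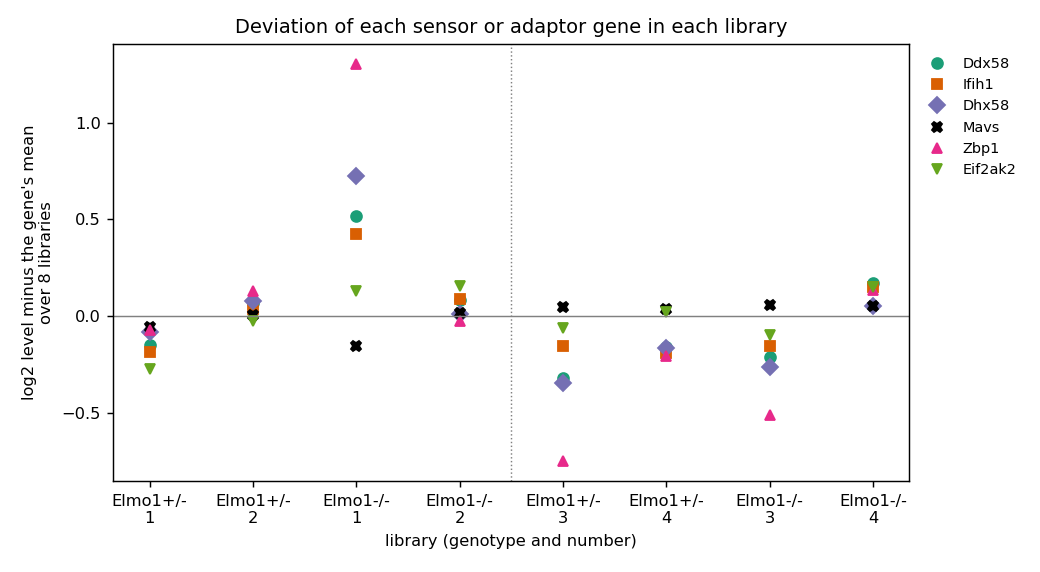
Log2 level of each gene minus its mean over the 8 libraries (vertical axis), by library, with numbers 1 and 2 of both genotypes left of the dotted line and numbers 3 and 4 right of it. In *Elmo1*-/- library 1 the genes fan out from *Zbp1* at 1.30 to *Mavs* at −0.16, and *Mavs* stays close to 0 in the others.

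The genes with the most similar pattern were taken from all tested genes by Pearson's r over the 8 libraries, as a description and without a test, since the libraries share the separation by number and *Elmo1*-/- library 1. Closest to the mean standardised level of the 5 inducible members were *Ifi203* (r = 0.991), *Ifi209* (0.990), *Trim30a* (0.987), *Irgm1* (0.982) and *Gbp6* (0.982), genes of interferon-inducible families. With each number set centred on its mean the closest were *Herc6* (0.996), *Adar* (0.994), *Ifi209* (0.991), *Ifit1* (0.990) and *Gm4951* (0.988). *Adar* encodes the enzyme that edits adenosines in double-stranded RNA, the ligand of MDA5 and PKR. Closest to *Mavs* were *Rock1* (0.996), *Heatr5a* (0.991) and *Brwd3* (0.989), and after centring *Rock1* (0.993), *Dennd1b* (0.992) and *Dld* (0.991). Without *Elmo1*-/- library 1 all of these r values lay between 0.956 and 0.998. Since the genes were chosen by r over these same libraries, that range is no separate check of the likeness.

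The second comparison asked how far the members follow the separation by number. Between libraries 3 and 4 and libraries 1 and 2, with the genotype as a further term, limma called 4603 of 14139 genes (32.6%) and none of the 6 members. At an unadjusted p under 0.05 it gave 3 of the 6, against 45.4% of all tested genes. *Zbp1* was lower in the libraries numbered 3 and 4, with means of 1583 against 2672 and a log2 difference of −0.67 (standard error 0.28, adjusted p = 0.0931). *Dhx58* had −0.36 (standard error 0.15, adjusted p = 0.0876), *Ddx58* −0.26 (adjusted p = 0.103) and *Ifih1* −0.18 (adjusted p = 0.178). *Mavs* differed by 0.10 (adjusted p = 0.228) and *Eif2ak2* by 0.01 (adjusted p = 0.950). Without *Elmo1*-/- library 2, *Dhx58* (−0.48, adjusted p = 0.0264) and *Ddx58* (−0.33, adjusted p = 0.0433) passed the limma threshold, and 6897 genes did. Without *Elmo1*-/- library 1 the differences were nearer to 0, at −0.37 for *Zbp1*, −0.20 for *Dhx58*, −0.16 for *Ddx58* and −0.09 for *Ifih1*. All 10 osteoclast markers were higher and 4 of 8 macrophage markers lower in the libraries numbered 3 and 4. *Xist* was lacking in 3 of the 4 libraries numbered 1 and 2 and present in all 4 numbered 3 and 4. The number and the osteoclast markers cannot be told apart here, and the sex-linked genes part from them only in *Elmo1*-/- library 2. That library had *Xist* at 6929 and an osteoclast marker sum of 527397, against 589401 in *Elmo1*+/- library 2, without *Xist*. Which of these accounts for the values of the members was not tested.

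The genotype difference of the members did not itself differ detectably between the number sets. Limma's interaction term called 0 of 14139 genes (0.0%), with 378 at an unadjusted p under 0.05, and edgeR also called 0 and DESeq2 14. For the members the interaction ranged from −0.32 for *Zbp1* (95% interval −1.55 to 0.92) to 0.06 for *Mavs* (−0.22 to 0.34). Within numbers 1 and 2 the log2 difference between genotypes was 0.34 for *Ddx58*, 0.33 for *Ifih1*, 0.37 for *Dhx58*, 0.61 for *Zbp1*, 0.29 for *Eif2ak2* and −0.05 for *Mavs*. Within numbers 3 and 4 it was 0.22, 0.17, 0.15, 0.29, 0.05 and 0.01 in the same order of genes.

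Around the members, 109 genes in 7 lists cover the cofactors, the signalling chain and its brakes, cytosolic DNA sensing, the PKR branch, the ZBP1 branch and the interferon ligands. Of these 90 were tested, and limma called 0 higher and 0 lower between the genotypes, and 0 reached an unadjusted p under 0.05. The median log2 fold change over the 90 was 0.02, beside 0.00 over all tested genes.

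Among 17 genes listed as cofactors of the RIG-I-like receptors, 14 had a log2 fold change above 0 and the median was 0.06. Without *Elmo1*-/- library 1 the median rose to 0.13, with 15 of 17 above 0. The list was made by name, and the effect of its genes on the receptors was not measured here. *Oasl1*, for an inducible OAS-like protein that need not aid these receptors, had the highest, 0.60 (601 to 1042 normalized counts in *Elmo1*+/- and 904 to 2358 in *Elmo1*-/- mice, unadjusted p = 0.0702 from limma), and 0.31 without *Elmo1*-/- library 1. *Ddx60*, a helicase that aids RIG-I, had 0.37, the ubiquitin ligases *Trim25* and *Rnf135* that act on RIG-I had 0.12 and 0.07, and *Prkra*, which encodes the PKR activator PACT, had the lowest at −0.08.

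In the MAVS signalling chain 8 of 20 genes were above 0 and 12 below, with a median of −0.01. *Tbk1*, the kinase that phosphorylates IRF3, was level at 3304 to 3561 in *Elmo1*-/- and 3299.8 to 3508 in *Elmo1*+/- mice (log2 fold change 0.00, 95% interval −0.13 to 0.13 from limma). *Ikbke* had 0.06 and *Irf3* −0.02, and *Ikbkg*, the scaffold NEMO, had the lowest at −0.10. *Irf7*, the inducible factor of this chain, had 9340.2, 9260.1, 4038 and 5759 normalized counts in *Elmo1*+/- mice and 25956, 6032, 4959.8 and 7253 in *Elmo1*-/- mice. Its log2 fold change of 0.37 became −0.16 without *Elmo1*-/- library 1, so the direction of *Irf7* between genotypes was set by that library.

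Of 17 brakes on these receptors 16 were tested, with a median of 0.02 and a range from −0.07 for the autophagy gene *Atg12* to 0.17 for *Nlrc5*. *Nlrx1*, a mitochondrial NLR protein that restrains MAVS, had 0.02. All 16 thus lay within 0.17 of 0 on the log2 scale.

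Among 18 genes of cytosolic DNA sensing 17 were tested, 13 of them above 0, with a median of 0.02 that turned to −0.06 without *Elmo1*-/- library 1. *Ifi204*, an inducible PYHIN protein, had the highest at 0.43 (1642 to 2171 in *Elmo1*+/- and 1679 to 4494 in *Elmo1*-/- mice), and 0.15 without that library. *Cgas* (listed also as *Mb21d1*) had 0.17, *Tmem173* (STING) −0.02, *Aim2* 0.03 and the dNTP hydrolase *Samhd1* 0.12, and *Enpp1*, which degrades the cGAS product, had the lowest at −0.10. *Trex1*, the gene of a cytosolic DNA exonuclease, was listed at 0 in all 8 libraries. Whether this reflects its expression or the counting of reads was not tested. *Tmem173* followed the number sets more closely than the genotype, at 794 to 1133 normalized counts in libraries 1 and 2 and 483 to 619 in libraries 3 and 4 (log2 difference −0.81, adjusted p = 0.00127 from limma).

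The PKR branch was flat. Of its 14 genes 7 were above and 7 below 0, with a median of 0.00 and a range from −0.16 for *Ppp1r15a*, the subunit that recruits a phosphatase to eIF2α, to 0.15 for *Adar*. *Eif2s1*, for eIF2α itself, had 0.04, and *Dnajc3*, for the PKR inhibitor p58IPK, −0.01.

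Of the 10 ZBP1 partners 6 were above 0, with a median of 0.05 and the highest value in *Fadd* (0.15). The kinases *Ripk1* and *Ripk3* had −0.05 and −0.01, *Mlkl*, the executor of necroptosis, 0.05, and *Casp8*, which restrains it, 0.05. *Ripk3* was lower in the libraries numbered 3 and 4 (log2 difference −0.47, adjusted p = 0.00505 from limma) and *Casp8* higher (0.28, adjusted p = 0.00986).

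The interferons that these sensors induce were at the limit of detection. Of 17 interferon ligand genes in the table, 14 had no read in any library, and no ligand had more than 3 reads in a library. *Ifnb1*, for interferon β, had 1.84 normalized counts in 1 of 4 *Elmo1*+/- mice and 1.67 to 2.84 in 3 of 4 *Elmo1*-/- mice, too few for a comparison. None was tested. The 20 other interferon-stimulated genes, by contrast, were tested in full, and each lay above 0 on the log2 fold change scale, from 0.11 for *Irf9* to 0.68 for *Mx2*, with a median of 0.36. None was called, and 5 of 20 had an unadjusted p under 0.05 by limma against 0.941% of all tested genes. All 20 were highest in *Elmo1*-/- library 1, and without it the median was 0.14 and 19 of 20 were above 0. The median of the members, 0.25, fell to 0.12 in the same step. These genes are known to be regulated together, so their number is not a number of independent observations.

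**Figure D5:**
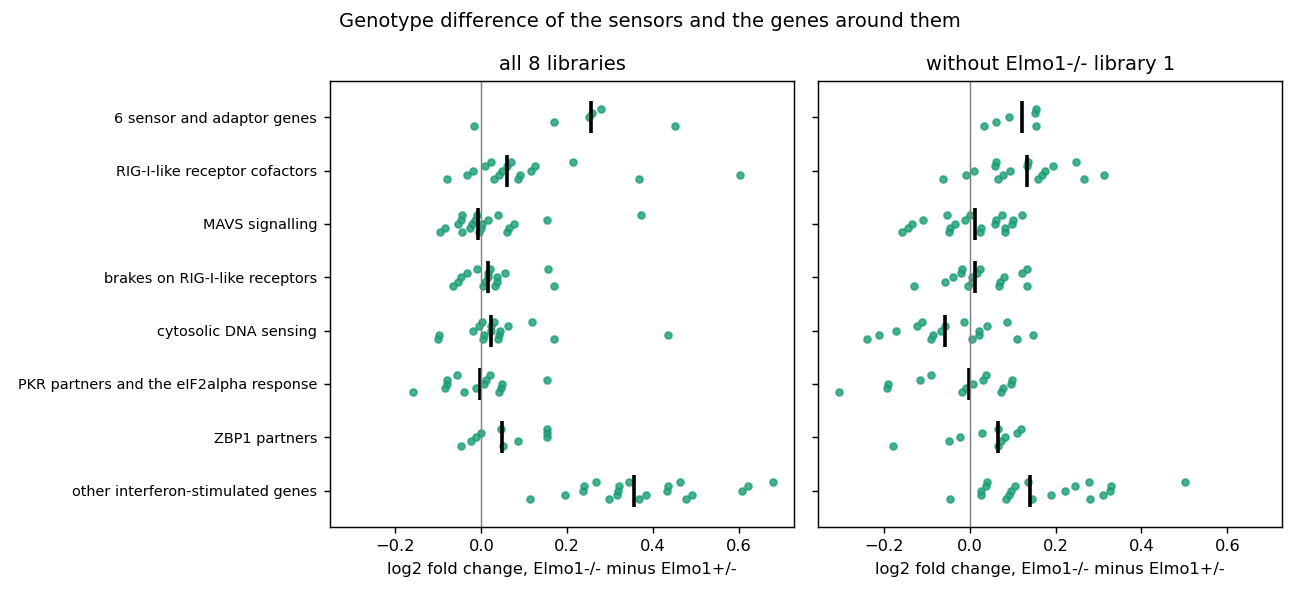
Log2 fold change, *Elmo1*-/- minus *Elmo1*+/- (horizontal axes), of each tested gene in each list (points, spread vertically for visibility) with the list median (black bar), over all 8 libraries (left) and without *Elmo1*-/- library 1 (right). The median of the other interferon-stimulated genes moves from 0.36 to 0.14 and that of the 6 sensor and adaptor genes from 0.25 to 0.12, while the signalling, brake and PKR lists stay near 0 in both. The median of the RIG-I-like receptor cofactors moves the other way, from 0.06 to 0.13.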

How the data were processed

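Osteoclast mRNA libraries (TruSeq, 75 bp paired-end) were used, 4 *Elmo1*-/- and 4 *Elmo1*+/- mice. Per the labels, the authors' tools were FastQC, STAR, featureCounts and DESeq2, with no versions. Build and gene models were not given in the sources used here. For every gene and library the authors deposited a normalized signal, which is a count of reads scaled with DESeq2 by a factor of that library. The same deposited table holds the authors' own genotype comparison (mean, log2 fold change, its error, statistic, p-value and adjusted p-value), which was not used. Names and positions came from GENCODE release 21, with 46005 identifiers matched and 512 not. Undoing that factor returned whole reads for 100% of the values in each library (tolerance 0.01 of a read).

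Genes with at least 10 normalized counts in at least 4 libraries were tested with limma 3.58.1 in R 4.3.3 (trend and robust) on log2(normalized count + 1), which understates changes of low genes, with Benjamini-Hochberg adjustment over all of them and a threshold of 0.05. Members were also tested by exact permutation over 70 arrangements (scipy 1.17.1). Alternatives were edgeR 4.0.16 and DESeq2 1.42.0 on recovered reads, scalings, filters, pseudocounts, single libraries left out, the replicate number as a block, the number set as a term and, added after seeing the data, the state of *Xist*. The correlation of deviations from the genotype means was 0.156 to 0.704 in the 4 same-numbered pairs, over 0.1 in each, so the numbers were taken to pair the libraries by the rule used here. The 4 differently numbered pairs within a number set had 0.0259 to 0.691, so the values also reflect the number sets. No libraries of the same genotype were copies of each other (chi-square per gene 8.00 or more). Libraries of different genotype were not compared in this way. The fits were tested on simulated data. The members and gene lists were chosen with earlier results of these data known. Genes named are the members, *Elmo1*, fixed pathway genes, the extremes of each list and the genes most like the members, beside others given as marker or sex-linked genes.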

Additional observations from a re-analysis of the deposited data

Results flagged for a closer look

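In each genotype the 4 values of 50 named genes were examined for a single sample far from the others, by the gap to its nearest neighbour over the whole range (Dixon's test at the 95% level). Of the 100 groups of 4, 6 exceeded its critical value, where chance would give about 1 in 20, or 5, for independent groups not chosen by their values. These groups were not independent, and some genes were chosen by their values, so that number is only a guide. Among the members these were *Ifih1* in *Elmo1*+/- library 2 (0.853), at 1833 normalized counts against 1568 to 1606 in the other controls, and *Eif2ak2* in *Elmo1*-/- library 3 (0.895), at 3037 against 3555 to 3616. The others were all in *Elmo1*-/- library 1, with *Irf7* (0.891) and *Nlrx1* (0.851) high and *Rock1* (0.850) and *Brwd3* (0.841) low. *Rock1* and *Brwd3* were named for their likeness to *Mavs*, itself lowest in that library, over these same libraries.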

How the results depend on the processing

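Between the genotypes no member passed the threshold in any of the 20 alternatives (adjusted p 0.624 to 1.00), and the 5 inducible members stayed above 0 in all of them. *Elmo1* was the only gene called in most, edgeR on the recovered reads included (1 gene), and DESeq2 and the 5 libraries with *Xist* called 2 genes each and single libraries left out 1 to 2. *Mavs* changed direction within the 5 libraries with *Xist* (0.00046) and with single libraries left out (−0.038 to 0.034). The replicate block changed no call (*Ddx58* 0.28, unadjusted p = 0.0245 by limma).

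For the number sets DESeq2 called 1 member, *Dhx58* (−0.38, adjusted p = 0.0318). With single libraries left out the genes called ran from 2861 to 6897, the members from 0 to 2, *Ddx58* from −0.33 to −0.16, *Dhx58* from −0.48 to −0.20 and *Eif2ak2* from −0.066 to 0.083. The interaction called 14 genes by DESeq2 and 0 to 239 with single libraries left out (181 without *Elmo1*-/- library 1 and 239 without *Elmo1*-/- library 2), and no member. Its values there ran from −0.34 to 0.095 for *Ddx58*, −0.33 to 0.0062 for *Ifih1*, −0.58 to 0.14 for *Dhx58*, −0.029 to 0.15 for *Mavs* and −0.98 to 0.35 for *Zbp1*. Per kb of the longest transcript the levels were 1202 (*Ddx58*), 331 (*Ifih1*), 883 (*Dhx58*), 634 (*Mavs*) and 757 (*Eif2ak2*), since these transcripts are shorter than the union of exons. Other causes of the changes were not tested.

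The 95% intervals of the genotype difference reached up to 0.14 on the log2 scale for *Mavs*, 0.37 for *Eif2ak2*, 0.52 for *Ifih1*, 0.62 for *Ddx58*, 0.70 for *Dhx58* and 1.26 for *Zbp1*. For each gene, differences up to its own limit were not excluded. Depth was not a limit for the members, which had 758 to 6939 reads in every library, whereas it was for the interferon ligands. The mice were separate animals, and the *Xist* split was read from the data.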
